A study of Mus musculus with 8 samples.

Results

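The genes examined here are 9 genes of amyloid precursor processing and tau: the amyloid precursor gene App and its relatives Aplp1 and Aplp2, the secretase genes Adam10, Bace1 and Psen2, the peptide-degrading enzymes Ide and Mme, and the tau gene Mapt. They were chosen by name, and every array probe set whose annotation gives one of these symbols and no other gene was taken. This gave 32 probe sets, out of 45037 on the array, for 9 of the 18193 genes that have a probe set of their own. Their messages in the hippocampus of Alzheimer's disease model mice were compared between a control diet and a diet with rosmarinic acid (RA), a plant polyphenol. None of the 32 probe sets passed the test for a higher or a lower level with RA. Of all probe sets on the array, 0.924% passed it for a higher level and 0.575% for a lower one, so few calls could fall among 32. A difference could be measured for 1 probe set each of App, Aplp2 and Bace1, and for the other 29 probe sets the deposited values were nearly the same on every array.

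Total RNA from hippocampus was hybridised to 8 Affymetrix mouse genome arrays, with 4 arrays in the control group and 4 in the RA group. All animals were 3 × Tg-AD mice, males at 10 months of age, fed an AIN-93G diet for 8 months without RA (control group) or with 0.5% RA (RA group). The study's methods speak of 4 mice of average weight per group and also of pooled total RNA, so whether 1 array stands for 1 mouse is not settled. The p-values below set a group difference against the spread between these arrays, which need not be the spread between mice. Arrays are called control 1 to control 4 and RA 1 to RA 4 after the numbers in their labels. Mice of both groups carry mutant human amyloid precursor protein (the Swedish mutation) and mutant human tau, from transgenes driven in neurons by a Thy1 promoter, and a further mutant allele of the line. There was no group without the transgenes. Whether the mouse App and Mapt probe sets also detect the human transgene messages was not tested.

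The amyloid precursor protein is a membrane protein of neurons that is cut in alternative ways. Adam10, the main alpha-secretase of neurons, cuts it inside the amyloid-beta sequence, whereas Bace1, the beta-secretase, cuts at the start of that sequence. The gamma-secretase complex, to which presenilin 2 (Psen2) belongs, then releases the peptide from the membrane. Insulin-degrading enzyme (Ide) and neprilysin (Mme) break amyloid-beta down. Aplp1 and Aplp2 are related membrane proteins that lack the amyloid-beta sequence and are cut by some of the same enzymes. Tau (Mapt) binds microtubules in axons and, when heavily phosphorylated, forms the tangles of Alzheimer's disease. An expression array reads messages only, so cleavage, peptide levels and phosphorylation were not measured here.

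The deposited values are log2 signal summaries made by FARMS, a method that keeps the signal shared by the probes of a set and draws a set without shared signal to a constant. A probe set was therefore counted as measured when its SD over the 8 arrays was above 0.01. On the whole array 3758 probe sets (8.34%) were measured, and among the 32 probe sets of the 9 genes the share was 9.38% (3 probe sets). No probe set of the 9 genes lay near this limit. The measured ones had SDs of 0.0769 (App, the nearest above it) to 0.197, and the nearly constant ones had SDs of at most 0.000433 (Psen2, the nearest below it). Array medians lay between 5.829 and 5.831 in control and, slightly higher and without overlap, between 5.833 and 5.835 in RA, and the arrays correlated at 0.989 to 0.998 with each other. A hybridisation signal also depends on the probes, so the means of different probe sets give their brightness on the array and not the relative amounts of their messages.

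**Figure D1:**
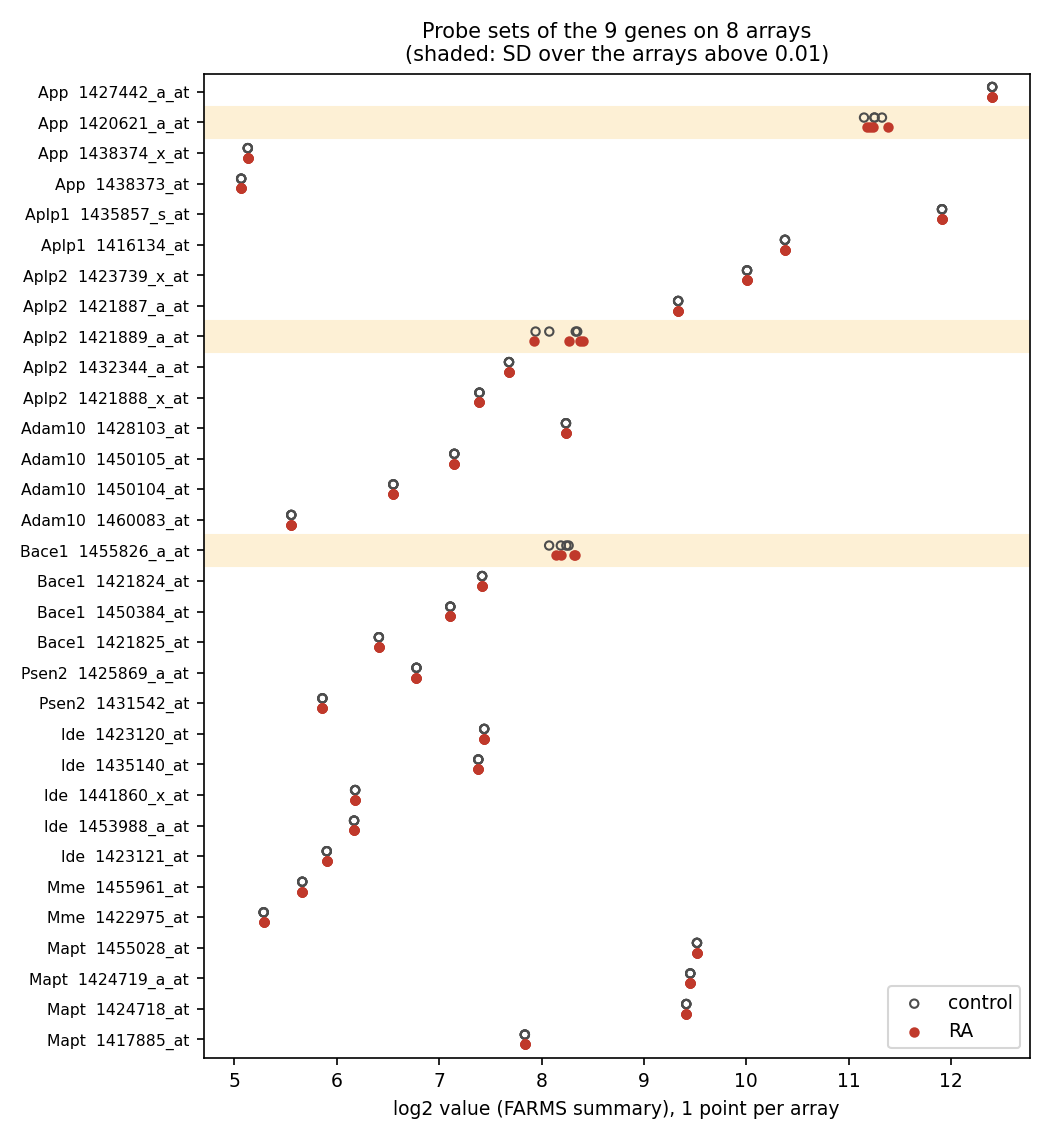
Log2 values (horizontal axis) of the 32 probe sets of the 9 genes, grouped by gene, with 1 point per array (open, 4 control arrays; filled, 4 RA arrays) and the 3 measured probe sets shaded. Outside the shaded rows the 8 points coincide, with a highest range of 0.00140 in Ide 1441860_x_at.

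Among the substrates, App was measured by probe set 1420621_a_at. Its log2 values were 11.25, 11.33, 11.25 and 11.15 on control 1 to 4 and 11.18, 11.21, 11.39 and 11.24 on RA 1 to 4. The groups overlapped, with RA 3 the highest array and control 4 the lowest, and 1 of 4 RA arrays lay above the control mean. The group means were 11.25 ± 0.0721 in control and 11.25 ± 0.0926 in RA (SD, n = 4 each), a log2 fold change (RA minus control) of 0.0070 with a standard error of 0.0562. limma's 95% interval ran from -0.13 to 0.14, a fold of 0.915 to 1.10, and its adjusted p over all probe sets was 0.978. The exact permutation test over the 70 assignments of the arrays gave a 2-sided p of 0.914. In bulk tissue, fewer cells of a type and less RNA per cell cannot be told apart, here and in every result that follows.

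The summary of this App probe set also varied little beside those of the other measured probe sets. Its highest array stood 1.18-fold above its lowest, and 7.85% of all measured probe sets had a lower SD. Its fold change was small too, since 4.34% of the measured probe sets had a smaller one in absolute size. The remaining App probe sets were nearly constant. They were 1427442_a_at with a mean of 12.40 over the 8 arrays, 1438374_x_at with 5.13 and 1438373_at with 5.07. For 1427442_a_at all RA values lay below all control values, but by a mean of only 0.00012 on the log2 scale. The exact permutation p was 0.0286, the smallest that 70 assignments allow. After adjustment over all probe sets it was 0.490, the lowest adjusted value of any probe set on the array. A step of 0.00012 belongs to a summary drawn to a constant and is no measure of a difference in App message.

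Aplp2 was measured by probe set 1421889_a_at, and its arrays spread the most among the 3 measured genes. The log2 values were 8.35, 8.33, 7.94 and 8.08 on control 1 to 4 and 8.38, 7.93, 8.27 and 8.40 on RA 1 to 4. Both groups held high and low arrays: RA 2 was the lowest of all and control 3 lay just above it, whereas RA 4 and RA 1 were the highest. The means were 8.17 ± 0.200 in control and 8.24 ± 0.217 in RA (SD, n = 4 each), a log2 fold change of 0.069 with a standard error of 0.141. The 95% interval from limma was -0.27 to 0.41, a fold of 0.83 to 1.33 (adjusted p = 0.893), and the exact permutation p was 0.714. The SD of Aplp2 over all arrays was close to the middle of the measured probe sets, 52.7% of which had a lower one, and its highest array stood 1.39-fold above its lowest.

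The direction of the Aplp2 difference rested on control 3, and its size also moved with other arrays. Without control 3 its log2 fold change was -0.0088, and without RA 2 it was 0.17, with no call in either direction. It stayed positive when any other array was left out. The remaining Aplp2 probe sets, 1423739_x_at (mean 10.01), 1421887_a_at (9.33), 1432344_a_at (7.68) and 1421888_x_at (7.39), were nearly constant. Aplp1 was not measured at all. Its probe sets 1435857_s_at (mean 11.91) and 1416134_at (10.38) had SDs of 8.51e-05 and 8.19e-05 over the arrays, although their means were far above the array medians.

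**Figure D2:**
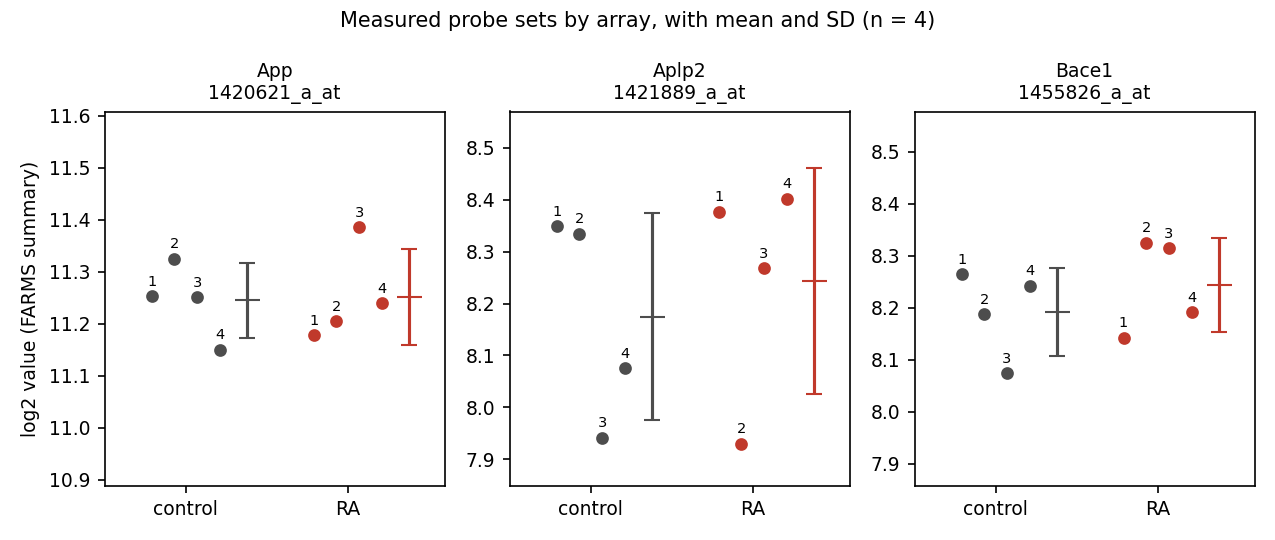
Log2 values of the measured probe sets of App, Aplp2 and Bace1 on each array, numbered as in the labels, with the mean and SD of each group (n = 4) beside the points; the vertical axes cover equal log2 spans but do not start at 0. Control and RA arrays overlap in all 3 panels.

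Among the secretases, Bace1 was measured by probe set 1455826_a_at. Its log2 values were 8.26, 8.19, 8.07 and 8.24 on control 1 to 4 and 8.14, 8.33, 8.31 and 8.19 on RA 1 to 4. RA 2 and RA 3 were the highest arrays, control 3 was the lowest, and RA 1 and RA 4 lay inside the control range. The means were 8.19 ± 0.0850 in control and 8.24 ± 0.0905 in RA (SD, n = 4 each), with 2 of 4 RA arrays above the control mean. The log2 fold change was 0.051 with a standard error of 0.0595, and limma's 95% interval of -0.092 to 0.19 stood for a fold of 0.938 to 1.14 (adjusted p = 0.796). By the exact permutation test p was 0.429. Like App, Bace1 varied little, with a 1.19-fold step from the lowest to the highest array and 9.21% of the measured probe sets below it in SD.

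The other Bace1 probe sets were nearly constant, with means of 7.42 (1421824_at), 7.11 (1450384_at) and 6.41 (1421825_at). The alpha-secretase Adam10 was not measured by any of its 4 probe sets, 1428103_at (mean 8.24), 1450105_at (7.15), 1450104_at (6.55) and 1460083_at (5.56), whose SDs over the arrays were between 0.000188 and 0.000310. Psen2 was not measured by 1425869_a_at (6.78) or 1431542_at (5.86) either. The values of 1431542_at were lower on all RA arrays than on all control arrays (exact permutation p = 0.0286, and 0.490 adjusted, again the lowest of any probe set). The step was 0.00066 on the log2 scale, the largest in absolute size among the nearly constant probe sets of the 9 genes, and it was called by neither the rank product nor limma (adjusted p = 0.375).

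Neither degrading enzyme was measured. Ide had 5 probe sets, 1423120_at (mean 7.44), 1435140_at (7.38), 1441860_x_at (6.18), 1453988_a_at (6.17) and 1423121_at (5.90), with SDs from 0.000137 to 0.000426. Mme had 1455961_at (5.66) and 1422975_at (5.29), with means below the array medians and SDs of 0.000110 and 7.12e-05. The deposited values hold no information on whether the messages of the degrading enzymes differed between the diets.

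The same held for tau. Mapt had 4 probe sets, 1455028_at (mean 9.52), 1424719_a_at (9.45), 1424718_at (9.41) and 1417885_at (7.84), and their SDs over the 8 arrays were 9.97e-05, 0.000245, 0.000166 and 0.000108. All lay above the array medians, but the deposited summary carries no difference between arrays. The mean differences between the groups ran from -0.00029 to 0.00019 on the log2 scale and none was called. A change in Mapt message was not detectable in these values, which does not show that there was none.

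**Figure D3:**
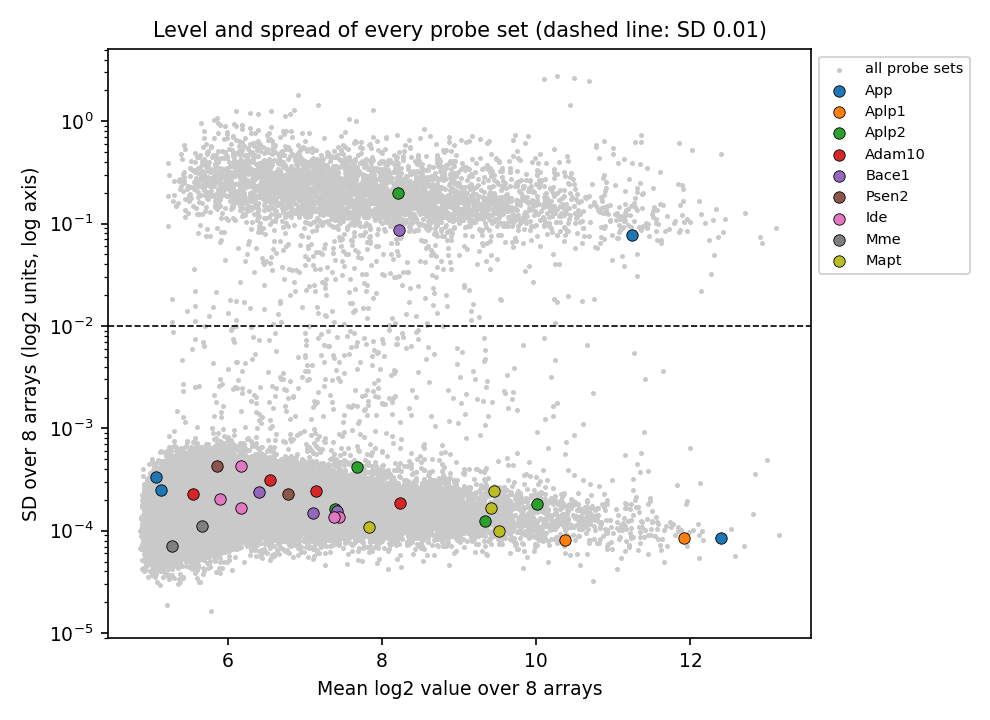
SD over the 8 arrays (vertical, log axis) against mean log2 value (horizontal) of each of the 45037 probe sets in grey, with the 32 probe sets of the 9 genes coloured by gene and a dashed line at an SD of 0.01. The probe sets of App, Aplp2 and Bace1 above the line are at 0.0769, 0.197 and 0.0858, and those of Aplp1, Adam10, Psen2, Ide, Mme and Mapt all lie at or below 0.000433.

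Bright probe sets of the 9 genes were among those not measured. On the whole array the measured share rose with the mean, from 1.08% below a mean of 6 to 12.7% from 6 to 8, 31.6% from 8 to 10, 42.5% from 10 to 12 and 52.9% above. Of the 9 genes' probe sets, 0 of 7 were measured below a mean of 6, 0 of 13 from 6 to 8, 2 of 7 from 8 to 10, 1 of 4 from 10 to 12 and 0 of 1 above. All 3 measured probe sets have names ending in _a_at, the manufacturer's mark for probes that match several transcripts of one gene. The 9 genes have 9 probe sets of this kind and 18 with the plain ending _at, of which 0 were measured, whereas on the whole array 14.1% of the former and 7.15% of the latter were. These shares are a description and were not tested. It was common for a gene's probe sets to disagree in this way: of the 9010 genes with several, 16.3% had some measured and others nearly constant, and 80.6% had none measured.

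The diets were compared with the test that the study's methods name, the rank product, which ranks all probe sets in each of the 16 pairs of an RA array with a control array. A probe set was called when its estimated proportion of false positives was below 0.05. Of all probe sets, 0.924% were called higher in the RA group and 0.575% lower, and every call fell on a measured one, which makes 11.1% and 6.89% of the measured probe sets. Of the 3 measured probe sets of the 9 genes, 0 were called higher and 0 lower. At shares of this size in the background, 0 of 3 says little about the set. The background itself changed with the arrays and probe sets used. The 416 higher calls were 18 to 42 whichever RA array was left out, and 973 without control 1. The 259 lower calls ran from 133 to 314 on leaving out 1 array. With only the measured probe sets tested there were 4 higher and 17 lower calls. The estimated proportions for a higher level were 1.09 for App, 0.249 for Aplp2 and 0.370 for Bace1, and for a lower level they were 0.729, 0.980 and 1.07.

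By the other measures too, the 3 genes stood within the spread of the arrays. limma called 0 probe sets on the whole array (0%). Of the 45037 probe sets 4553 had an unadjusted limma p under 0.05, and 363 of these were measured. Among them were 0 of the 3 measured probe sets of the 9 genes and 2 of their 29 nearly constant ones. The methods' t-test gave 4095 probe sets at an unadjusted p under 0.05 and 0 after adjustment. The control and RA values did not overlap in 5.59% of all measured probe sets and in 0 of these 3. The log2 fold changes of App (0.0070), Bace1 (0.051) and Aplp2 (0.069) were all above 0, as were 73.1% of those of all measured probe sets, whose median was 0.069. With each array centred on the measured probe sets, App came to -0.046, Bace1 to -0.0015 and Aplp2 to 0.016, so that the sign of App and Bace1 depends on the scaling.

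**Figure D4:**
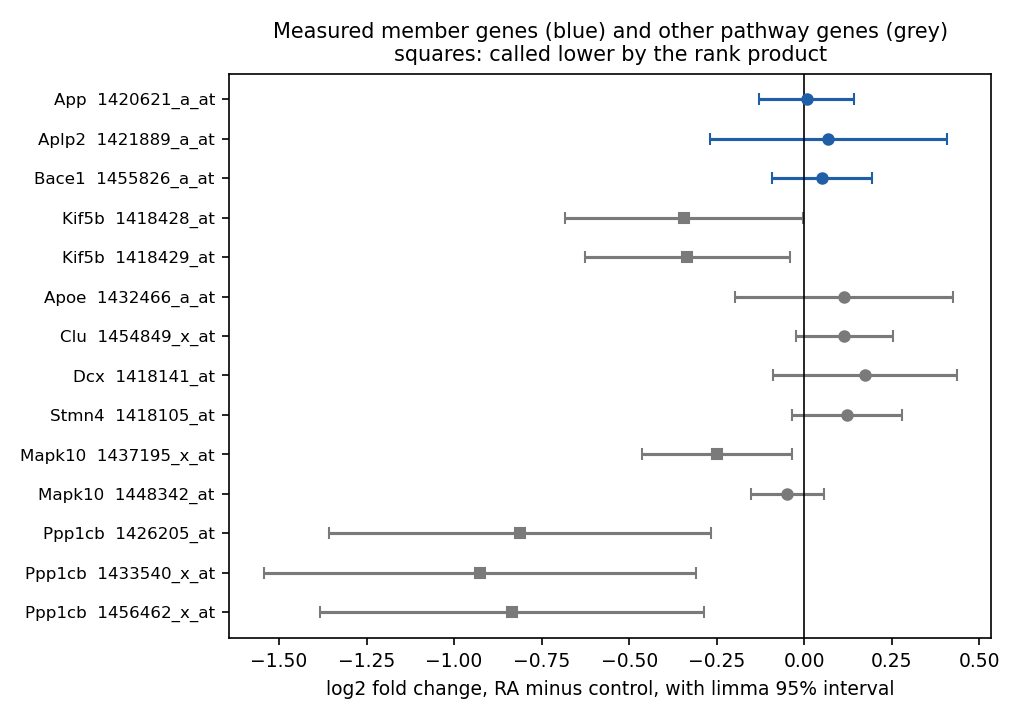
Log2 fold change (RA minus control, horizontal axis) with limma's 95% interval for the measured probe sets of App, Aplp2 and Bace1 (blue) and of the named genes of related lists (grey); squares mark probe sets that the rank product called lower. The intervals of App, Aplp2 and Bace1 include 0, and those of the 3 Ppp1cb probe sets lie between -1.54 and -0.27.

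App, Aplp2 and Bace1 did not rise and fall on the same arrays. Likeness of a pair was taken as the root mean square difference between their log2 values, each centred on its own mean over the 8 arrays. It was 0.0964 for App and Bace1, 0.178 for App and Aplp2 and 0.203 for Aplp2 and Bace1. This measure also grows with the spread of each probe set, which was largest in Aplp2. The smaller value for App and Bace1 therefore does not show that these 2 moved together. RA 2, the lowest array for Aplp2, was the highest for Bace1 and below the mean for App. RA 3 was above the mean in all 3 genes, by 0.14 in App, 0.059 in Aplp2 and 0.096 in Bace1.

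Among the best measured probe sets of 2495 genes, those nearest to App by this measure were Cdc42, a small GTPase of the actin cytoskeleton, at 0.0329, Gabarapl1, an autophagy protein, at 0.0342, and Rnf14, a ubiquitin ligase, at 0.0413. Cdc42 shared with App its highest array, RA 3 (10.28), and its lowest, control 4 (9.94). Nearest to Aplp2 were Dipk1b at 0.0539, Cend1, a neuronal protein of cell cycle exit, at 0.0952, and Lgmn, a lysosomal protease, at 0.105. Dipk1b had low values on the same arrays as Aplp2, control 3 (7.28) and RA 2 (7.37). Nearest to Bace1 were the kinase Wnk2 at 0.0384, the transcription regulator Tsc22d1 at 0.0388 and the receptor tyrosine kinase Tyro3 at 0.0399. The smaller distances around App and Bace1 go with their smaller spread over the arrays, and nearness over 8 arrays is given as a description.

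Markers of tissue and cell types differed between arrays of the same group. All 12 hippocampal markers were measured, with a summed level of 3409 to 4173 on the linear scale in control and 2905 to 3726 in RA, and 3 of them were called lower in the RA group. The 12 choroid plexus markers were all measured and all called higher in the RA group, although the groups overlapped (summed level 825 to 13302 in control and 688 to 11885 in RA). Ttr, a choroid plexus message, read 8.54, 8.57, 13.39 and 8.90 on control 1 to 4 and 12.05, 7.67, 13.12 and 13.26 on RA 1 to 4. Of 12 meningeal markers 7 were called higher, and of 12 thalamic markers 6, again with overlapping groups. The summed level was 1329 to 2256 in control and 1548 to 2976 in RA for the meningeal markers. For the thalamic ones it was 981 to 1292 and 1107 to 1649. Astrocyte markers summed to 5830 to 6557 in control and 6297 to 7036 in RA, and microglia markers to 1981 to 2545 and 2277 to 2957. Endothelial and pericyte markers summed to 876 to 1002 and 947 to 1385. In these 3 lists all measured genes had log2 fold changes above 0, with medians of 0.10, 0.15 and 0.20 in that order. The median of all measured probe sets was 0.069. Of all measured probe sets 11.1% were called higher and 6.89% lower, and few higher calls remained on the array without any 1 RA array (18 to 42). Of 12 neuron markers 10 were measured (Syn1 and Eno2 were nearly constant) and 1 was called lower, with a summed level of 18161 to 18640 in control and 17869 to 19137 in RA.

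RA 2, the lowest array for Aplp2, was also the lowest in the mean of the hippocampal markers (-0.53 from their mean over the arrays) and of the oligodendrocyte markers (-0.87). On control 3, where Aplp2 was nearly as low, those means were 0.32 and 0.43, and on control 1, where Aplp2 was high, they were -0.45 and -0.71. RA 2 was also the lowest array in the mean of the choroid plexus (-0.95) and neuron markers (-0.065). It was the highest in the meningeal (0.70), endothelial and pericyte (0.48) and thalamic markers (0.41). In the astrocyte, microglia and striatal markers it was neither the highest nor the lowest. Without the 4 arrays high in Ttr (control 3, RA 1, RA 3 and RA 4), which left 3 control arrays against RA 2 alone, the rank product called Aplp2 lower (log2 fold change -0.32, estimated proportion of false positives 0.0234). This call rests on 1 RA array, and limma did not make it (adjusted p = 0.703). App was then at -0.038 and Bace1 at 0.093, neither called. The part of tissue composition in these values was not tested.

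Genes around the 9 in the same pathways were described in 7 lists chosen from textbook knowledge, with 90 genes that have a probe set. Each gene was read by its probe set of highest mean. By that reading 0 were called higher and 1 lower, Ppp1cb, and with any probe set of a gene Kif5b and Mapk10 were called lower as well. Of all probe sets 0.924% were called higher and 0.575% lower, and of the measured ones 11.1% and 6.89%. These shares count probe sets and not genes, so they are only a rough background for the counts of genes. limma called none of them on the deposited values. After another scaling of the arrays limma called 28543 to 41721 probe sets in all, most of them nearly constant. Its adjusted p-values were then 0.0146 to 0.0640 for Kif5b, 0.0146 to 0.0373 for the called Mapk10 probe set and 0.00862 to 0.0220 for Ppp1cb. With that many calls the adjustment changes p-values little, so these values are no further support. The other gamma-secretase subunits (4 of 6 listed genes had a probe set) and the other alpha- and beta-site proteases Adam9, Adam17 and Bace2 resembled Adam10 and Psen2 in that 0 of their genes were measured. Among the secretase genes analysed, Bace1 was thus the one gene with a measured value.

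Of 9 other degrading enzymes and clearance proteins 5 were measured and 0 called, with a median log2 fold change of 0.075 beside 0.069 for all measured probe sets. Apoe, the lipid carrier, stood at 0.11 (SE 0.130) and the extracellular chaperone Clu at 0.11 (SE 0.0578), with overlapping groups in both. Of 22 adaptor and trafficking genes of the amyloid precursor 6 were measured, with a median of 0.021. Kif5b, a kinesin motor of axonal transport, was called lower by 1418428_at (log2 fold change -0.34, SE 0.142) and 1418429_at (-0.33, SE 0.122), but its probe set of highest mean was nearly constant. limma's adjusted p-values for these Kif5b probe sets were 0.491 and 0.454 on the deposited values, and both calls were lost without control 2 or without control 3, that of 1418429_at also without control 4. Leaving out 1 array moved the 2 differences between -0.44 and -0.24, and with only the measured probe sets tested neither was called.

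Of 23 tau kinase genes 10 were measured, with a median log2 fold change of 0.075. Mapk10, the neuronal c-Jun kinase JNK3, was called lower by 1437195_x_at alone (-0.25, SE 0.0891, limma adjusted p = 0.447), while 1448342_at stood at -0.048 (SE 0.0436) and was not called. The values of 1437195_x_at were 8.86, 9.14, 9.05 and 9.03 on control 1 to 4 and 8.88, 8.61, 8.90 and 8.68 on RA 1 to 4, so the groups overlapped through control 1. The Mapk10 call was lost without control 2, 3 or 4, with the difference between -0.30 and -0.20 on leaving out 1 array, and also with the replicate number as a block, among the probe sets with a mean above the median and among the measured probe sets alone. Of 15 other microtubule-associated proteins 10 were measured, with a median of 0.085 and 0 called. Dcx, a protein of young neurons, stood at 0.17 (SE 0.109) and Stmn4, a stathmin, at 0.12 (SE 0.0653).

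Of 14 tau phosphatase genes 5 were measured, with a median of -0.039. Ppp1cb, a catalytic subunit of protein phosphatase 1, had 3 measured probe sets. Its groups stood apart in each, as they did in 5.59% of all measured probe sets. By 1426205_at its values were 10.34, 10.87, 10.95 and 10.39 on control 1 to 4 and 10.17, 9.46, 10.09 and 9.59 on RA 1 to 4. The difference was -0.81 (SE 0.227), and by 1433540_x_at and 1456462_x_at it was -0.93 and -0.83. The exact permutation p was 0.0286 for each, the smallest possible here. After adjustment over all probe sets it was 0.490. No probe set on the array reached a lower adjusted value, so this adjusted test could not single out any of them. For 1426205_at limma's adjusted p was 0.375. The 3 probe sets read 1 gene and are not separate results. The rank product called all 3 lower under each scaling, filter and left-out array tried, while the substrate of these enzymes, tau, had no measured value.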

How the data were processed

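Hippocampal RNA of 4 control and 4 RA samples, grouped and numbered by their labels, was measured on Affymetrix arrays. Each deposited value is a log2 summary of 1 probe set, computed by the authors with FARMS, and the sources used here give no scaling between arrays. After removal of 64 control probe sets from 45101 rows, 45037 were tested on the deposited values without further scaling. Platform annotation, with symbols updated through a gene table, named 34945 for 1 gene; 932 name several and 9160 none. The rank product of the Methods used 100 permutations and a proportion of false positives under 0.05. limma 3.58.1 in R 4.3.3 gave fold changes and Benjamini-Hochberg adjusted p-values over all probe sets, and 2-sided exact permutation tests used Python. These 3 methods were run on simulated arrays with equal spread in every probe set. The deposited values, mostly nearly constant, differ from that, so the simulation does not show how the methods perform on them. Precision is limited by the number of arrays. Members and lists were chosen with earlier results of these data known. All probe sets of the 9 genes are named; of each list, called genes or, with none, the 2 measured genes of largest change; for likeness, the 3 nearest genes. Alternatives were other scalings, filters, tests, a replicate block and left-out arrays. One mutated gene of the mouse line is not reported here, and 5 listed genes were not analysed here. The arrays were treated as unpaired. Correlations of same-numbered deviations were -0.12, -0.33, 0.45 and -0.39, and without differently numbered pairs beside them they do not settle whether the numbers pair arrays.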

Additional observations from a re-analysis of the deposited data

How the results depend on the processing

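The number of probe sets of the 9 genes called higher was 0 under every alternative tried, and so was the number of their 3 measured probe sets whose groups do not overlap. The number called lower was 0 except without the 4 arrays high in Ttr, a choice made after seeing the data, where it was 1 (Aplp2). For Aplp2 the log2 fold change was reversed without control 3 (-0.0088) and without the 4 arrays (-0.32), and leaving out 1 array gave -0.0088 to 0.17. For App it was reversed with arrays centred on the measured probe sets (-0.046), without control 4 (-0.025), without RA 3 (-0.038) and without the 4 arrays (-0.038), with a range of -0.038 to 0.034 on leaving out 1 array. For Bace1 it was reversed by the centring (-0.0015), and leaving out 1 array gave 0.012 to 0.085. The cause was not tested. With the replicate block the log2 fold changes stayed 0.0070, 0.069 and 0.051 for App, Aplp2 and Bace1 and 0 of their probe sets were called, while over all probe sets the rank product then called 75 higher and 207 lower in place of 416 and 259. Leaving out 1 array gave 18 (without RA 1) to 973 (without control 1) higher and 133 to 314 lower calls over all probe sets. Of the 90 related genes, leaving out 1 array gave 0 to 3 called higher: Prkacb, Dcx and Stmn4 without control 1, and Camk2a without control 3. The number called lower was 1, with 3 by any probe set of a gene and 0 by limma. After another scaling limma called up to 41721 probe sets, 41278 of them nearly constant, because a small shift of an array moves values that hardly vary. The called probe sets of Ppp1cb, Mapk10 and Kif5b were then among limma's calls, except Kif5b 1418428_at after quantile normalization (adjusted p = 0.0640). With that many calls the adjustment changes p-values little, so this adds no support. Among the measured probe sets alone the rank product called 4 higher and 17 lower. The mean over a gene's measured probe sets gave no other value, since each gene has 1.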
